A study of Mus musculus with 9 samples.

Results

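Small leucine-rich proteoglycans are secreted matrix proteins built on a short run of leucine-rich repeats, and the transcripts of 10 of them were followed here: Bgn, Dcn, Aspn, Ecm2, Lum, Fmod, Prelp, Omd, Ogn and Podn. They were taken by gene symbol alone and make up 10 of the 38924 genes in the count table. The cells were primary fibroblasts from the hearts of mice 8 to 10 weeks old, on a C57BL/6 background, and their RNA was sequenced in bulk. Every animal, those of the control group included, expressed Cas9 and EGFP from the Rosa locus (RosaCas9-EGFP). Cells were cultured for 3 days, sorted as CD45-CD31-CD90+, grown for a further 6 days and transfected with guide RNAs. The Control group received scrambled guides, and the Gata4 KD and Tbx20 KD groups received 2 guides against that transcription factor. Each of the 3 groups had 3 libraries, lettered a, b and c. The study describes them as biological replicates, but the labels name no animal or culture, so the p-values below measure the spread between these libraries, which may be in part technical.

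Proteins of this family bind fibrillar collagen and set the width and spacing of its fibrils. Many carry chondroitin, dermatan or keratan sulfate chains, and several hold growth factors such as transforming growth factor beta in the matrix. In the heart they are made largely by fibroblasts and are found in its collagen network and in scars.

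The shallowest library held 31214828 counts and the deepest 41950397 (median 36270725). Levels below are CPM, which are counts in proportion to library size, scaled by TMM factors over the 9 libraries. The targeted transcript of Gata4 was at 162 ± 6.82 CPM (SD, n = 3) with scrambled guides and at 55.4 ± 9.48 CPM (SD, n = 3) with guides against it, a log2 fold change of -1.55 (adjusted p 0.00272, edgeR quasi-likelihood F test). Tbx20 was at 1002 ± 278 CPM (SD, n = 3) in Control and 391 ± 61.8 CPM in Tbx20 KD (SD, n = 3). The 3 and 3 libraries did not overlap. Its log2 fold change was -1.35 with an SE of 0.21 and an unadjusted p of 0.000154 (edgeR quasi-likelihood F test). After Benjamini-Hochberg adjustment over all 14547 genes tested, its p was 0.748, so it did not pass among all genes. The Tbx20 KD label is the study's own and does not depend on this test. All 8 fibroblast markers examined were detected in every library, among them Thy1, which encodes the CD90 used in the sort, at 74.9 to 111 CPM. The 6 cardiomyocyte markers each had a mean under 1 CPM, and their sum stayed at or under 1.66 CPM in every library. Gm42418, an rRNA-like transcript, took 2.71% of the counts in Gata4 KD a and 0.297% to 1.11% in the other 8 libraries.

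The genes lie in a few chromosomal groups on the mouse build GRCm38. Ecm2, Aspn, Omd and Ogn follow one another on the plus strand of chromosome 13, from 49504810 at the start of Ecm2 to 49624501 at the end of Ogn, and Cenpp overlaps each of them on the other strand. Dcn (chromosome 10, 97479609 to 97518143) and Lum (97565128 to 97572703) lie side by side on the plus strand. Prelp (chromosome 1, 133910304 to 133921414, minus strand) and Fmod (134037254 to 134048277, plus strand) share another stretch. Bgn is on the X chromosome (73483602 to 73495933) and Podn on chromosome 4 (108014791 to 108096445, minus strand), where its span overlaps that of Scp2 on the same strand. Of 75-base windows in the transcripts, only Omd shared any with other genes, 53 of 2221 (2.39%).

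The family was dominated by 1 gene. Bgn encodes biglycan, which binds collagen and, when released from the matrix, can stimulate Toll-like receptors. Its level was 3708 CPM, 3751 CPM and 3384 CPM in Control a, b and c, then 3678 CPM, 2974 CPM and 4665 CPM in Gata4 KD, and 3268 CPM, 4048 CPM and 4242 CPM in Tbx20 KD. Bgn held 88.8% to 93.7% of the counts of all 10 genes in every library, or 88.5% to 93.5% after division by transcript length. The other 9 genes together reached 202 to 500 CPM.

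Levels of different genes were compared only per kilobase of the longest coding transcript. In Control the order was Bgn at 1494 ± 83.0 CPM per kb (SD, n = 3), Dcn at 84.8 ± 22.1, Prelp at 39.7 ± 7.53 and Ogn at 22.4 ± 14.5. Aspn at 3.96 ± 3.55 CPM per kb, Fmod at 3.01 ± 1.15, Ecm2 at 1.16 ± 0.478 and Lum at 0.700 ± 0.645 followed, and Podn at 0.212 ± 0.0384 and Omd at 0.166 ± 0.213 were lowest (SD, n = 3 for each). The Control libraries overlapped between the neighbours Prelp and Ogn, Aspn and Fmod, Ecm2 and Lum, and Podn and Omd, so between libraries those levels were not separated. Within a library the order held more often: Bgn exceeded Dcn, Dcn exceeded Prelp, Prelp exceeded Ogn and Ecm2 exceeded Lum in 9 of 9, Aspn exceeded Fmod in 7 of 9, and Podn exceeded Omd in 5 of 9. Dividing by the union of all annotated exons instead left Dcn at 25.5 CPM per kb, below Prelp, and 6 of 10 genes at the same rank.

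Decorin and asporin belong with biglycan to the first class of the family. Dcn encodes decorin, which coats collagen fibrils and binds transforming growth factor beta. It was at 152 CPM, 186 CPM and 109 CPM in Control a, b and c, at 117 CPM, 92.9 CPM and 196 CPM in Gata4 KD, and at 105 CPM, 199.99 CPM and 177 CPM in Tbx20 KD. Each group thus held both low and high libraries, and the 3 ranges overlapped.

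Aspn encodes asporin, a collagen-binding relative of decorin that also binds transforming growth factor beta. Its Control libraries were at 6.39 CPM, 18.6 CPM and 2.74 CPM, those of Gata4 KD at 3.31 CPM, 2.97 CPM and 12.5 CPM, and those of Tbx20 KD at 6.67 CPM, 14.4 CPM and 15.8 CPM. The highest Control library was 6.77 times the lowest, more than any difference between group means. Ecm2, an extracellular matrix protein with the same repeats and the neighbour of Aspn, was at 4.05 CPM, 5.93 CPM and 2.50 CPM in Control, 3.56 CPM, 2.92 CPM and 6.33 CPM in Gata4 KD, and 3.76 CPM, 6.30 CPM and 5.43 CPM in Tbx20 KD. Again Control b, Gata4 KD c and Tbx20 KD b and c were the high libraries.

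Lum, Fmod, Prelp and Omd form the class whose members carry keratan sulfate or none. Lum encodes lumican, a regulator of collagen fibril width, and was at 0.979 CPM, 3.53 CPM and 0.632 CPM in Control, 1.17 CPM, 0.523 CPM and 4.04 CPM in Gata4 KD, and 0.733 CPM, 2.66 CPM and 3.22 CPM in Tbx20 KD. These values rest on 19 to 146 counts per library, and the highest was 5.57, 7.72 and 4.40 times the lowest within Control, Gata4 KD and Tbx20 KD. Fmod encodes fibromodulin, which binds collagen at the same site as lumican and helps to guide its crosslinking. It was at 10.8 CPM, 12.1 CPM and 5.33 CPM in Control, 3.87 CPM, 1.87 CPM and 11.7 CPM in Gata4 KD, and 4.75 CPM, 13.6 CPM and 10.9 CPM in Tbx20 KD. Gata4 KD a and b were the lowest of all 9 libraries for Fmod, while Gata4 KD c lay among the Control values.

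Prelp encodes a repeat protein with a basic end that anchors basement membranes to connective tissue. It was at 168 CPM, 148 CPM and 114 CPM in Control, 87.9 CPM, 73.2 CPM and 204 CPM in Gata4 KD, and 99.7 CPM, 164 CPM and 163 CPM in Tbx20 KD. Gata4 KD held both the lowest and the highest of the 9 libraries. Omd encodes osteomodulin, known from bone, and stayed under 1 CPM, on 2 to 33 counts in a library. It was highest in Control b at 0.923 CPM and lowest in Control c at 0.0602 CPM.

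Ogn, of another class, encodes osteoglycin (mimecan), which takes part in collagen fibril assembly and has been linked to left ventricular mass. Its Control libraries were at 47.1 CPM, 98.8 CPM and 26.6 CPM, those of Gata4 KD at 27.6 CPM, 26.6 CPM and 64.2 CPM, and those of Tbx20 KD at 51.5 CPM, 96.7 CPM and 85.2 CPM. Only 1 Gata4 KD library, replicate c, reached the range of Tbx20 KD. Podn encodes podocan, which binds collagen and restrains smooth muscle growth, and ran from 0.315 CPM in Gata4 KD a to 1.47 CPM in Gata4 KD c, on 10 to 53 counts per library.

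**Figure D1:**
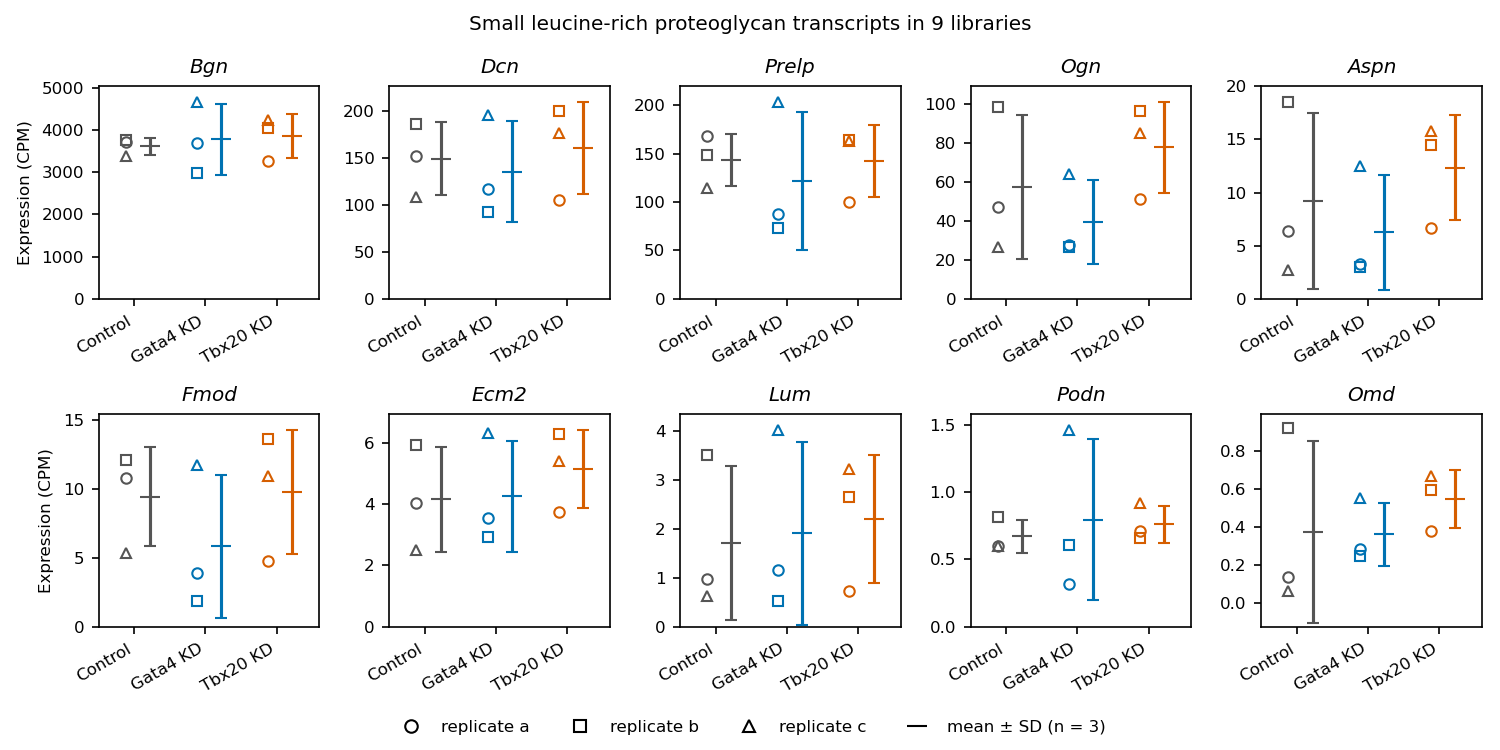
Expression of each of the 10 genes (y axis, CPM, linear, a scale of its own for each gene) in the 3 groups (x axis), with 1 symbol per library and the mean ± SD (n = 3) beside it. The groups overlap for every gene, and the high library of Control (b) and of Gata4 KD (c) recurs from panel to panel, while the SD bar of Omd in Control runs below 0.

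The comparison of each knockdown with Control asked whether lowering the transcription factor moved the family. In Gata4 KD against Control, 0 of 9 genes tested were called at an adjusted p under 0.05, where 0.38% of all 14468 genes tested were called, and 0 of the 9 had an unadjusted p under 0.05, where 8.54% of all genes did (DESeq2 also called 0). None of the genes had groups that did not overlap, against 13.8% of all genes. Of the 9, 4 were higher and 5 lower in Gata4 KD, with a median log2 fold change of -0.14 beside -0.02 over all genes. Omd was left out by the filter on low counts, which kept the other 9.

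The largest difference was that of Fmod, whose mean was 5.81 ± 5.18 CPM (SD, n = 3) in the knockdown against 9.40 ± 3.58 CPM in Control. Its log2 fold change was -0.69 with an SE of 0.58 and a 95% interval of -2.02 to 0.63, and its adjusted p was 0.817 (edgeR quasi-likelihood F test). Leaving out 1 Gata4 KD library moved Fmod to -1.70 (replicate c) or -0.27 (replicate b). Aspn was at -0.56 with an interval of -2.21 to 1.10, and Ogn at -0.54 with one of -1.65 to 0.57. The interval was narrowest for Bgn, at 0.06 with bounds of -0.29 and 0.41, which leaves room for a change between 0.821-fold and 1.33-fold. For Dcn, at -0.14, the bounds were -0.78 and 0.50. Prelp was at -0.24 (-1.04 to 0.56), Ecm2 at 0.04 (-0.80 to 0.87), Podn at 0.26 (-0.89 to 1.41) and Lum at 0.16 (-1.65 to 1.96), so a 2-fold change of Lum or Aspn in either direction was not detectable at this spread. The sum of 6 mesothelial markers was 8.10 to 15.8 CPM in Gata4 KD against 23.4 to 44.9 CPM in Control, without overlap. It was 25.4 to 41.3 CPM in Tbx20 KD. The markers did not all move with the sum: of 4 tested against Control, 2 were higher in Gata4 KD and 1 was called lower. Lrrn4, which made up most of the sum in Control, fell from 24.8 ± 8.48 CPM (SD, n = 3) in Control to 2.38 ± 0.329 CPM in Gata4 KD (log2 fold change -3.38, adjusted p 0.00272, edgeR), while Msln and Krt8 stayed at or under 0.326 CPM. Upk3b was at 0.605 to 1.11 CPM in Gata4 KD against 1.66 to 3.92 CPM in Control. Krt19 was higher in Gata4 KD a and b (9.54 and 11.9 CPM) than in Control (5.26 to 7.59 CPM) and lower in c (4.15 CPM). Wt1 overlapped between the groups. The part of mesothelial cells in the values of the family was not tested.

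In Tbx20 KD against Control, 0 of 10 genes tested were called, where 0.00687% of 14547 genes were, and 0 had an unadjusted p under 0.05 (2.69% of all genes) or non-overlapping groups (6.74% of all genes), and DESeq2 called 0. Of the 10, 9 were higher and 1 lower, with a median log2 fold change of 0.25 beside -0.0022 over all genes. The genes rose and fell together between libraries of a group, so these directions are not 10 separate observations. The fold changes ran from -0.0001 for Prelp to 0.54 for Omd, and every 95% interval spanned 0. That of Bgn was -0.15 to 0.36 around 0.10, and that of Prelp -0.47 to 0.47. Ogn had 77.8 ± 23.5 CPM (SD, n = 3) in Tbx20 KD against 57.5 ± 37.2 CPM in Control, a log2 fold change of 0.44 with an interval of -0.54 to 1.42. When a library was left out, Ogn ran from 0.11 without Control replicate c to 1.09 without Control replicate b, and Omd from 0.06 to 2.43 without the same libraries. Both knockdowns were set against the same 3 Control libraries.

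Set directly against each other, the knockdowns gave 9 genes lower and 1 higher in Gata4 KD than in Tbx20 KD, with a median of -0.26 beside -0.01 over all genes. Here too the directions are not 10 separate observations, because the genes moved together between libraries. Of the 10 tested, 0 were called, where 1.44% of 14477 genes were (DESeq2 called 0), and 0 had groups that did not overlap, against 23% of all genes. Ogn alone had an unadjusted p under 0.05, as 16.7% of all genes did. Its mean was 39.4 ± 21.4 CPM (SD, n = 3) after Gata4 guides and 77.8 ± 23.5 CPM after Tbx20 guides. The log2 fold change was -0.98 with an SE of 0.38 and a 95% interval of -1.86 to -0.10, and the adjusted p was 0.251 (edgeR quasi-likelihood F test). Aspn was close in size, at -0.96 with an interval of -2.30 to 0.38 and an adjusted p of 0.444 by the same test. Both results turned on 1 library. Without Gata4 KD replicate c, Ogn was at -1.53 with an adjusted p of 0.0195 and Aspn at -1.98 with an adjusted p of 0.0299 (edgeR), and no reason in the labels sets that library aside. Lrrn4 was lower in Gata4 KD here too, at -3.42 (adjusted p 0.000961, edgeR), and the endothelial receptor gene Kdr was higher, at 0.90 (adjusted p 0.0258, edgeR).

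**Figure D2:**
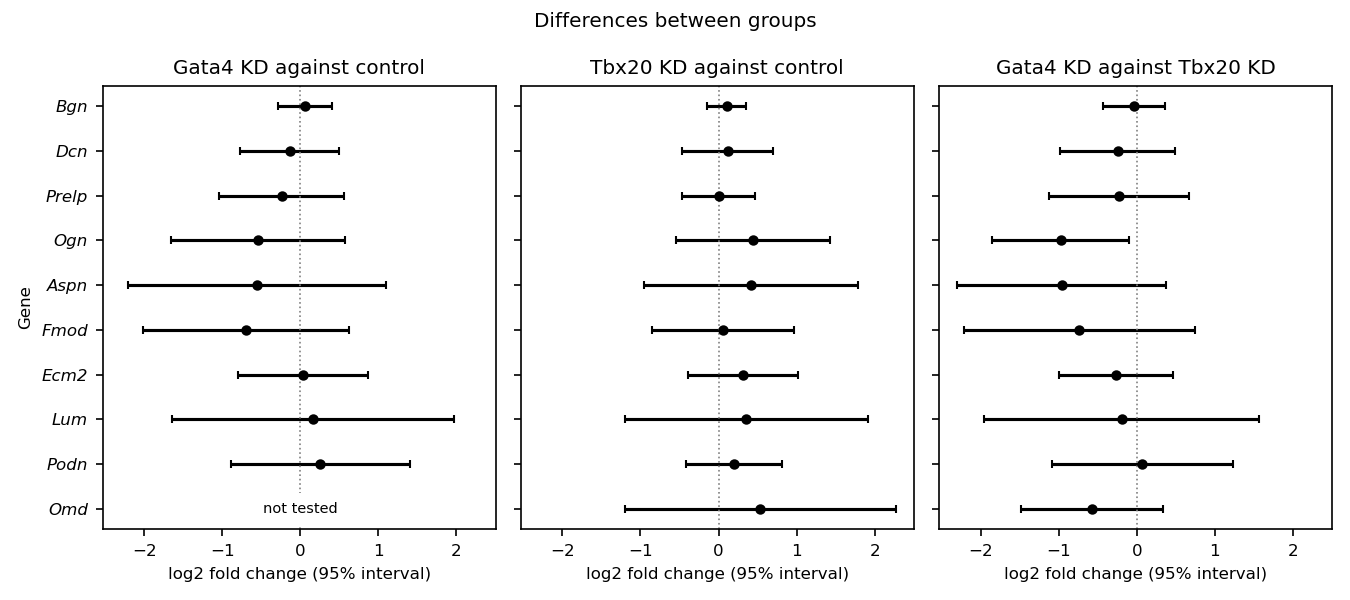
Log2 fold change (x axis) of each gene (y axis, in order of level per length) in the 3 comparisons, first group named minus the second, as points with 95% intervals from the quasi-likelihood fit. All intervals include 0 except that of Ogn in Gata4 KD against Tbx20 KD, and Omd was not tested in Gata4 KD against Control.

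Within each group the genes moved together from library to library. In Control, replicate b was highest for 9 of 10 genes (Prelp was highest in a) and replicate c lowest for 9 of 10 (Podn was lowest in a). In Gata4 KD, replicate c was highest for 10 of 10 and replicate b lowest for 9 of 10. In Tbx20 KD, replicate a was lowest for 9 of 10, and the highest library was b for 5 genes and c for 5. The exceptions were Podn, one of the least abundant genes, and Prelp in Control.

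The full order, with Control b high and c low, Gata4 KD c high and b low, and Tbx20 KD a low, was shown by 8 of 10 genes. Of all 14782 genes that passed the filter, 1006 (6.81%) showed it. The order was read from the values of these genes, so the 8 describe them and test nothing. Scaling by library size alone also gave 8. The transcript of Tbx20 itself followed the order, from 720 CPM in Control c to 1275 CPM in Control b and from 513 CPM in Gata4 KD b to 908 CPM in Gata4 KD c. Its part in the pattern was not tested.

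**Figure D3:**
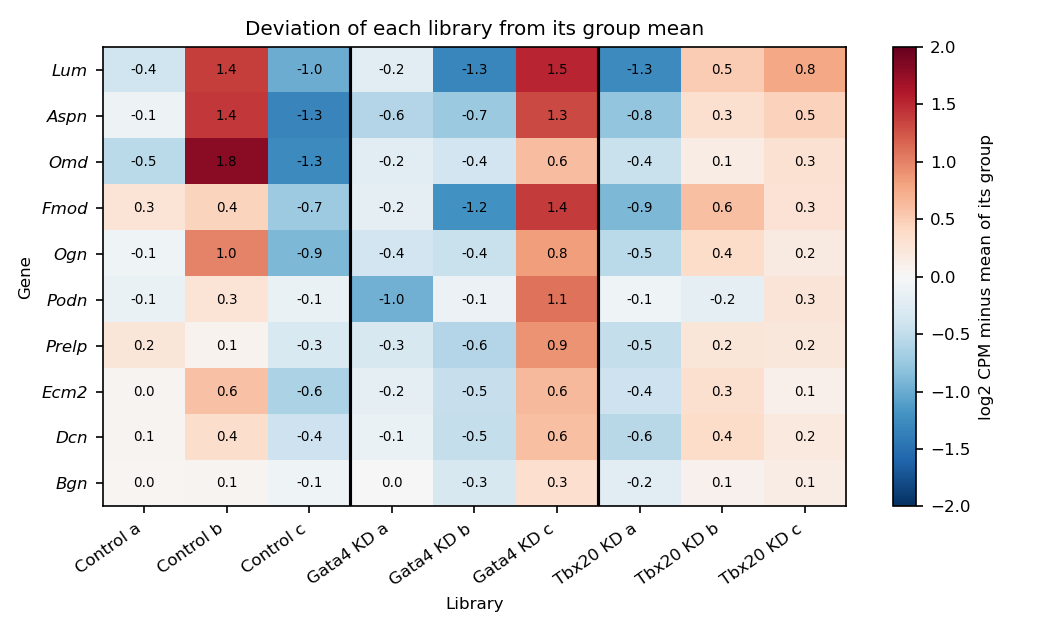
Log2 CPM of each gene (rows, widest spread at the top) minus the mean of its group, for the 9 libraries (columns), in red where above and blue where below. Control b and Gata4 KD c are above their group means for all 10 genes, and Tbx20 KD a is below for all 10.

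The size of this spread varied widely among the genes. The SD within groups, pooled over the 3 groups on the log2 CPM scale, was 1.27 for Lum, 1.10 for Aspn, 1.01 for Omd and 0.96 for Fmod. Ogn was at 0.74, Podn at 0.62, Prelp at 0.54, Ecm2 at 0.53, Dcn at 0.48 and Bgn at 0.23. The median of the 10 was 0.68 and that of all genes that passed the filter 0.15. Bgn, the most abundant, was also the steadiest of the 10, yet it exceeded 69.7% of all genes, and the other 9 each exceeded at least 92.3%. Among the 10518 genes with a mean of 5 CPM or more, Bgn exceeded 88.3%. Counting error was small for Bgn, Dcn, Prelp and Ogn, and larger for Omd and Podn, whose libraries held as few as 2 and 10 counts.

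Over the 9 libraries, the correlation of log2 CPM between pairs of these genes had a median Pearson r of 0.82 over 45 pairs, from 0.38 for Omd and Prelp to 0.99 for Ogn and Aspn. Pairs on the same chromosome (8 pairs) had a median of 0.93 and pairs on different chromosomes (37 pairs) one of 0.78. After removal of group means the medians were 0.96 and 0.83. Most of the same-chromosome pairs were among Ecm2, Aspn, Omd and Ogn on chromosome 13, so they are not 8 separate cases. All pairs of Podn, a gene with 10 to 53 counts per library, were between chromosomes. Their r over the 9 libraries was 0.47 to 0.68. Pairs of Bgn were all between chromosomes too, with r from 0.52 (Omd) to 0.89 (Lum). These values describe libraries that share depth and scaling, over only 9 points. The median spread of genes beside the family was smaller: of 87 protein-coding genes that start within 500 kb of a member, 54 passed the filter, with a median SD within groups of 0.17, and 12 of them exceeded the SD of Bgn. The widest, Xlr4a at 1.28, exceeded all 10 members, at a mean of only 0.256 CPM. None of these neighbours was called in any of the 3 comparisons (edgeR). Those at an unadjusted p under 0.05 were 6 of 51 in Gata4 KD against Control and 2 of 52 in Tbx20 KD against Control. Between the knockdowns they were 11 of 50. The shares over all genes were 8.54%, 2.69% and 16.7%.

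**Figure D4:**
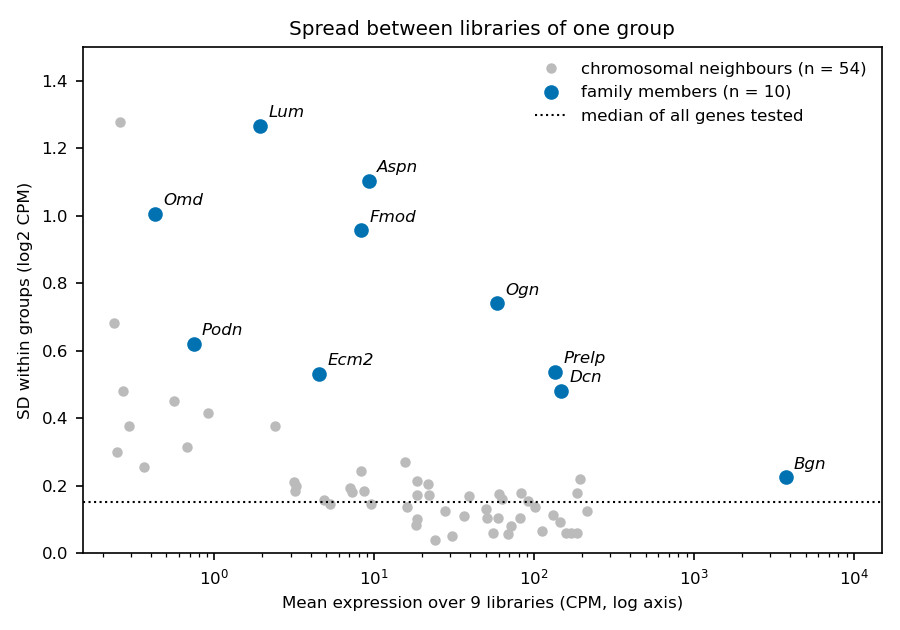
SD of log2 CPM within groups (y axis) against mean expression over 9 libraries (x axis, CPM, log scale) for the 10 genes in blue and for 54 chromosomal neighbours in grey, with the median of all genes tested as a dotted line. Every one of the 10 lies above the line at 0.15, and the spread falls from Lum at 1.27 to Bgn at 0.23.

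Because the members moved together, the bases before their start sites are shown for the pair most alike, Ogn and Aspn, for Fmod, which had the lowest adjusted p in Gata4 KD against Control, and for Bgn, the steadiest. Each run is the 250 bases upstream of the start, 5′ to 3′ on the plus strand, from RefSeq on GRCm38.p6. The table held promoters for 8 of the 10 genes, 9 promoters in all, and those of Dcn and Lum are only named. Capitals mark letters that GATA factors bind, which are AGATAA or TGATAA with a last letter that may also be G (in full, AGATAG besides TGATAG), and the core of T-box sites, written GGTGTGA. Both strands were searched.
Aspn, chr13:49544193-49544442: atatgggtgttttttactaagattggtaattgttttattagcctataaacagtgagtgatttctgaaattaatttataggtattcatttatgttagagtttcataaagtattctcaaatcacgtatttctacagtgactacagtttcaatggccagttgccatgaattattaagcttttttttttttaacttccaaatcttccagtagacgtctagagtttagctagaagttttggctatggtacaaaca
Ogn, chr13:49607765-49608014: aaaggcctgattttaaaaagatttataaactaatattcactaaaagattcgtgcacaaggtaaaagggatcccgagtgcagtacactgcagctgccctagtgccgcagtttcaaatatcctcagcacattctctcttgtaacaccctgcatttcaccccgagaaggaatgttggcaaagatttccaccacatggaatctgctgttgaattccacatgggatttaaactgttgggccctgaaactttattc
Fmod, chr1:134037004-134037253: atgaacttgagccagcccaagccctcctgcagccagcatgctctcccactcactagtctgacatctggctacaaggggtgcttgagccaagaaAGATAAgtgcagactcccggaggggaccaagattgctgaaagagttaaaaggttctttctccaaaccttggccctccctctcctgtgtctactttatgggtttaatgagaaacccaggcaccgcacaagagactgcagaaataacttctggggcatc
Bgn, chrX:73483351-73483600: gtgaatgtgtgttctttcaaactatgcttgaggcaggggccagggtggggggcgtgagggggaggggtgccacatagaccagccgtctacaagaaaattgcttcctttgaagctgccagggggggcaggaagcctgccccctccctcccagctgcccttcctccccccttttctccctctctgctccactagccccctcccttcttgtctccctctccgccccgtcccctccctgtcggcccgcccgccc

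Fmod holds 1 match to the GATA letters, which begins 157 bases before the start, and the only other was in 1 of the promoters of Podn. That makes 2 of 9 promoters of the family, where 26.5% of 32851 RefSeq promoters of the same length held such letters. The T-box letters were in 0 of 9, and in 3.33% of all. The promoters of the 4 genes on chromosome 13 had a GC content of 30% (Aspn), 38.4% (Omd), 40% (Ecm2) and 42% (Ogn), below the 51.2% of Fmod and 64.4% of Bgn. Those of Aspn and Ogn alone among the 9 held the letters TATAAA, which 12.4% of all promoters hold. In Aspn they began 207 bases before the start and, on the other strand, 178 bases before it. In Ogn they began 227 bases before the start and, on the other strand, 229 bases before it. A match is a string of letters and not a bound site.

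For each gene with a mean of at least 5 CPM, the gene with the most similar course over the 9 libraries was taken from 10055 candidates by Pearson's r of log2 CPM. That of Ogn was Aspn (r 0.99), which is also in the group on chromosome 13. Omd lies between them but, with a mean under 5 CPM, was not a candidate. That of Aspn was Zeb1 (r 0.99), which encodes a zinc finger repressor and ran only from 117 to 157 CPM. Prelp went with the collagen VI chain Col6a1 (r 0.99), Bgn with P4ha3, a prolyl hydroxylase subunit of collagen synthesis (r 0.98), Fmod with the complement component C3 (r 0.99) and Dcn with C2 (r 0.99). C3 ranged from 13.3 CPM in Gata4 KD b to 53.1 CPM in Tbx20 KD b. Each r was the highest among the 10055 candidates over only 9 libraries, so the choice alone favours a high value. A link between the genes of a pair was not tested.

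Other members of the family were scarce. Kera and Chad had no count in any library, Epyc reached at most 0.0839 CPM, and Optc, Chadl, Nyx and Podnl1 stayed at or under 0.533 CPM. Tsku, which encodes the secreted signalling modulator tsukushi, was the exception at 66.8 to 108 CPM. Its course ran against that of the 10 genes, lowest in Control b at 78.2 CPM and in Gata4 KD c at 66.8 CPM. Of these 8 genes 5 were tested, and 0 were called in any comparison (edgeR). At an unadjusted p under 0.05 were 1 in Gata4 KD against Control, 0 in Tbx20 KD against Control and 1 between the knockdowns. The shares over all genes were 8.54%, 2.69% and 16.7%.

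Of 36 genes that build the sulfated sugar chains, 31 were tested. Chst15, a sulfotransferase of chondroitin sulfate, rose in Gata4 KD to 15.6 ± 0.373 CPM (SD, n = 3) from 9.12 ± 0.397 CPM in Control, by 0.78 on the log2 scale (SE 0.10, adjusted p 0.0245, edgeR), with no overlap of libraries. It was the only one of the 31 called in that comparison, 1 higher and 0 lower, with a list median of -0.04. Against Tbx20 KD it was higher by 1.04 (adjusted p 0.00173, edgeR), and B4galt4, a galactosyltransferase of keratan sulfate, was lower by -0.47 (adjusted p 0.0459, edgeR). In Tbx20 KD against Control 0 of 31 were called, with 4 at an unadjusted p under 0.05, where 2.69% of all genes were. Csgalnact1, which starts chondroitin chains, and the dermatan sulfate epimerases Dse and Dsel were among 7 of the 31 that shared the library order of the family. Of all genes that passed the filter 6.81% shared it.

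All 18 collagens and crosslinking partners were tested. In Gata4 KD against Control 0 were called, with a median of -0.22. Of the 18, 5 had an unadjusted p under 0.05, where 8.54% of all genes did. In Tbx20 KD against Control 0 were called, with a median of -0.01. Here 3 of the 18 had an unadjusted p under 0.05, where 2.69% of all genes did. Against Tbx20 KD, 1 was higher in Gata4 KD: Col12a1, a chain of the fibril-associated collagen XII, at 578 ± 105 CPM (SD, n = 3) against 297 ± 40.8 CPM (log2 fold change 0.96, adjusted p 0.0300, edgeR). The library order of the family was shared by 6 of 18, namely Col1a2, Col3a1, Col5a2, Col14a1, Lox and Eln, beside 6.81% of all genes. Col3a1, a fibrillar collagen, was at 3594 CPM in Control b and 2692 CPM in Control c, and at 3204 CPM in Gata4 KD c and 1607 CPM in Gata4 KD b.

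Of 14 proteases and processing factors, 11 were tested. Mmp13, a collagenase, rose in Tbx20 KD to 18.0 ± 0.547 CPM (SD, n = 3) from 4.76 ± 0.668 CPM in Control, by 1.93 on the log2 scale (SE 0.12, adjusted p 0.00166, edgeR), the only gene of the whole table called in that comparison. Of the 11, 1 was called higher and 0 lower, with 9 of 11 fold changes above 0. In Gata4 KD against Tbx20 KD it was the 1 called lower, at -2.29 (adjusted p 0.00176, edgeR). In Gata4 KD against Control 0 of 11 were called, with 2 at an unadjusted p under 0.05, where 8.54% of all genes were. Bound ligands and receptors numbered 19, with 18 tested and 0 called against Control in either knockdown. At an unadjusted p under 0.05 were 4 in Gata4 KD and 2 in Tbx20 KD, beside 8.54% and 2.69% of all genes. Between the knockdowns 9 of 18 had an unadjusted p under 0.05, where 16.7% of all genes did. Of these Ccn4, a secreted Wnt-induced protein, was called lower in Gata4 KD, at -0.86 (adjusted p 0.00754), and the receptor Tgfbr1 higher, at 0.30 (adjusted p 0.0405, edgeR for both). Of 27 other proteoglycans 20 were tested and 0 called, with 1, 4 and 5 at an unadjusted p under 0.05 in the 3 comparisons in the order above. The shares over all genes were 8.54%, 2.69% and 16.7%. The library order of the family was shared by 3 of 11 proteases and processing factors and 5 of 18 ligands and receptors. Among other proteoglycans it was shared by 5 of 20, and among all genes that passed the filter by 6.81%.

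Markers of endothelial, mesothelial and leukocyte cells were low but did not stay level across libraries. The summed level of 7 endothelial markers was 39.1 to 58.8 CPM, at 57.7 CPM in Control b and 58.8 CPM in Gata4 KD c, and at 53.4 and 54.8 CPM in Tbx20 KD b and c, the libraries in which the 10 genes were high, and at 43.3 CPM or less in the other 5. Of these markers Tek held the most, at 16.2 to 35.7 CPM. In the knockdowns the match of the sum rested on Tek. Without it the sum was 25.6 CPM in Gata4 KD b and 25.4 CPM in c, and 20.03 CPM in Tbx20 KD a against 18.6 CPM in b. Of the 7 markers, 2 shared the full order of the family, Tek and Emcn. Emcn was at 2.72 CPM in Gata4 KD b and 3.46 CPM in c. Pecam1, the CD31 of the sort, was at 3.07 to 9.22 CPM and highest in Gata4 KD b, where the 10 genes were low. Within groups the sum of the 6 mesothelial markers ran the other way. It was 23.4 CPM in Control b against 44.9 CPM in Control a, and 8.10 CPM in Gata4 KD c against 15.8 CPM in Gata4 KD b. In Gata4 KD that rested on Krt19, at 11.9 CPM in b and 4.15 CPM in c. Lrrn4 (2.09 CPM in b, 2.32 CPM in c) and Upk3b (0.605 and 1.11 CPM) were higher in c. Of the 8 fibroblast markers, 3 shared the order of the family (Pdgfra, Col1a2 and Tcf21). Vim ran against it, lowest in Control b at 2611 CPM and in Gata4 KD c at 2343 CPM. Thy1 was lowest of the Control libraries in b at 81.5 CPM, but in Gata4 KD it was lower in b (82.5 CPM) than in c (90.7 CPM). Tcf21, a transcription factor of resident cardiac fibroblasts, ran from 168 CPM in Control c to 200.2 CPM in Control b and from 88.1 CPM in Gata4 KD b to 156 CPM in Gata4 KD c. Leukocyte markers (8, summed) were at 21.9 to 52.5 CPM, with Ptprc, the CD45 of the sort, at 1.62 to 3.13 CPM. Of the 6 leukocyte markers that passed the filter, 2 shared the order of the family (Adgre1 and Itgam). Of 7 cartilage and bone markers 5 had a mean under 1 CPM, while Sox9 was at 121 to 190 CPM and Runx2 at 24.5 to 36.5 CPM, and the summed level was highest in Control b at 222 CPM and in Gata4 KD c at 204 CPM. The 6 myofibroblast markers summed to 3382 to 4303 CPM but did not move as one. Postn alone of the 6 shared the order of the family, at 1208 CPM in Control b and 588 CPM in Gata4 KD b. Acta2, Tagln and Cnn1 were lowest of Control in b, at 922, 375 and 6.16 CPM. In Gata4 KD, Acta2 and Tagln were lowest in b and Cnn1 in c. Ccn2 was highest of its group in Control b and Gata4 KD c. The 4 pericyte and 3 Schwann cell markers summed to at most 9.85 CPM and 1.05 CPM. The part of these cells in the spread was not tested, and in bulk RNA fewer cells of a type and less RNA per cell cannot be told apart.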

How the data were processed

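RNA of 9 libraries was read as 75-base single-end reads. The deposited values are raw expected counts, whole numbers in the file, which the authors estimated for each gene with RSEM after Bowtie2 alignment, with strand taken into account. The study's methods name GRCm38 and the labels' processing notes mm9. Positions and symbols come from GENCODE M21 (GRCm38). The annotation behind the counts is not given in the sources used here, and 37607 of 38924 gene IDs (96.6%) had a symbol. RSEM shares reads among genes they match, so genes with near-identical stretches carry more error.

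For a comparison, only its own 6 libraries entered the model, built in edgeR 4.0.16 under R 4.3.3 (filterByExpr, TMM factors, quasi-likelihood F test, Benjamini-Hochberg adjustment over all genes tested, threshold 0.05, no covariate). CPM was scaled over 9 libraries, and log2 CPM used a prior count of 2. Named were the 10 members, the 2 targets, list genes past the threshold and the most similar gene of each member at 5 CPM or more. Genes named for sharing the library order, and other list genes given with values, were picked after their values were seen. The members and the lists were chosen with earlier results of these data known. The procedure was tested on simulated counts. Alternatives were DESeq2 1.42.0, other scalings and filters, an exact test, a joint fit of 9 libraries, a block for the replicate letter and leaving out each library.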

Additional observations from a re-analysis of the deposited data

How the results depend on the processing

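Of 372 recomputed log2 fold changes of the 10 genes, 329 kept their direction and side of the threshold, 36 changed direction and 7 passed the threshold. The cause was not tested. DESeq2 called 0 of the 10 genes in every comparison. An exact test with a common dispersion, which takes no account of how widely each gene spreads, called 2 in Gata4 KD against Control (Ogn and Fmod) and 3 in Gata4 KD against Tbx20 KD (Ogn, Aspn and Fmod). Leaving out each replicate in turn gave 0 to 2 calls in Gata4 KD against Tbx20 KD, the 2 without Gata4 KD replicate c, and 0 in the other comparisons.

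Over all genes, Gata4 KD against Control gave 55 calls, 273 with DESeq2, 121 without a filter, 148 with all 9 libraries in one fit, 446 with the exact test and 6 to 189 when a library was left out (189 without Control replicate b). Tbx20 KD against Control gave 1, with 10, 2 (no filter) and 104 by DESeq2, no filter and the exact test, and 1 to 5 when a library was left out (5 without Control replicate b). Gata4 KD against Tbx20 KD gave 208, with 761, 324 and 1054 in that order, and 22 to 801 when a library was left out (801 without Gata4 KD replicate c). With the replicate letter as a block the counts were 5, 2 and 101, with 0 of the 10 genes. Samples with the same letter had correlations of their deviations from -0.17 to 0.25 and those with different letters from -0.39 to 0.35. Not every library correlated best with its own letter. With 3 libraries a group these values cannot tell whether a letter stands for a shared animal or culture. The block turned Podn to -0.0763 in Gata4 KD against Tbx20 KD. Prelp in Tbx20 KD against Control became 0.0101 with library size alone, 0.0049 without a filter and 0.0001 in the exact test.

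When a library was left out, log2 fold changes in Gata4 KD against Control ran from -0.48 to 0.0724 for Dcn, -0.10 to 0.21 for Bgn, -1.02 to 1.24 for Lum, -1.07 to 0.10 for Ogn, -1.54 to 0.46 for Aspn, -1.70 to -0.27 for Fmod, -0.81 to 0.0236 for Prelp, -0.50 to 0.63 for Podn and -0.34 to 0.38 for Ecm2. In Tbx20 KD against Control they ran from -0.0734 to 0.35 for Dcn, -0.0318 to 1.45 for Lum, -0.26 to 0.39 for Fmod, -0.0090 to 1.43 for Aspn, 0.11 to 1.09 for Ogn, 0.06 to 2.43 for Omd and -0.14 to 0.20 for Prelp. In Gata4 KD against Tbx20 KD they ran from -0.22 to 0.11 for Bgn, -1.40 to 0.26 for Lum, -0.83 to 0.0356 for Prelp and -0.72 to 0.44 for Podn. Per length, 6 of 10 genes kept their rank with the union of exons, and 8 to 10 when a Control library was left out. Scaling by library size alone, an alternative chosen after the data were seen, left 8 genes with the shared order of libraries. With 3 libraries a group and SDs up to 1.27, the interval of Lum or Aspn in Gata4 KD against Control spans a 2-fold change in either direction.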
